A study of Rattus norvegicus with 12 samples.

Results

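Pik3c2g encodes a class II phosphoinositide 3-kinase, and 1 probe set, 1369050_at, is the only one whose single platform symbol is Pik3c2g among 31042 probe sets of a rat Affymetrix expression array, which cover 14217 named genes. The gene was picked because it was higher in diabetic than in non-diabetic rat myocardium at every time point, so that difference is described here without a test, while its time course and the behaviour of related genes were tested. The tissue was the free wall of the left ventricle of male Sprague-Dawley rats, away from the infarct. Diabetic rats received 1 injection of streptozotocin (STZ), a toxin of the insulin-producing beta cells, at 65 mg/kg and 8 weeks of age, and non-diabetic rats received the citrate buffer alone. After 10 weeks without control of blood sugar, in both groups, rats had a sham operation or a permanent ligation of the left anterior descending coronary artery, and ligated hearts were taken on day 1, 7, 14, 28 or 56. Each of the 12 arrays held the pooled RNA of 3 rats, 1 diabetic and 1 non-diabetic pool at each of 6 time points, which leaves each condition and day with a single array and the spread between rats unmeasured. STZ rats model diabetes from loss of insulin, and the drug itself and the high blood sugar cannot be told apart from the lack of insulin in this design. The labelled age was 18 weeks in the sham and day 1 pools, 19 weeks on day 7, 20 weeks on day 14 and 22 weeks on day 28, in both conditions, and on day 56 it was 26 weeks in the diabetic and 22 weeks in the non-diabetic pool. Injection at 8 weeks, 10 further weeks and 56 days come to 26 weeks, so the age label of the non-diabetic day 56 pool, which is that of day 28, does not match its day label. The tissue label of both sham pools also speaks of infarction, although their stated operation was a sham, and they are treated as sham here.

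Phosphoinositide 3-kinases add a phosphate to membrane inositol lipids. Class I enzymes work at the plasma membrane below insulin and growth factor receptors, class III makes the lipid that marks early endosomes and nascent autophagosomes, and class II enzymes act mainly on endosomes and other internal membranes. Of the class II enzymes, the alpha and beta forms are broadly expressed, while the gamma form encoded by Pik3c2g is known mainly from liver and some glands. In mouse liver it is recruited to early endosomes by the small GTPase Rab5 and sustains activation of the kinase Akt2 by insulin.

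The 250 bases upstream of the annotated start of Pik3c2g are shown because the search of motifs below was made in them. They lie at chr4:174215277-174215526 of GRCr8, on the plus strand, in the RefSeq sequence of that build, and are written 5′ to 3′ without capitals because none of the motifs was found.
Pik3c2g, upstream of the start: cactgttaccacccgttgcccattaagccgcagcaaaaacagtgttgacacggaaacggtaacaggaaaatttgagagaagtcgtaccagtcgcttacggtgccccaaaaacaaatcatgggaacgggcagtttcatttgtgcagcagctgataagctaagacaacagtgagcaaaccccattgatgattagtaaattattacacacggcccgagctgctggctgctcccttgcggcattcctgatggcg
The motifs were searched on both strands, and none of them contains another. GTAAACA, bound by FoxO factors, stands in 3.21% of 33469 windows of the same length, and CAAAACA, the core of classical insulin response sequences, in 5.46%. The direct repeat bound by PPAR with its partner RXR stands in 0.0508%, the palindrome bound by the glucocorticoid receptor in 0.012%, and TATAAA, the TATA box, in 12.9%. The absence of these letters from this window says nothing about binding of those factors elsewhere at the gene.

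Pik3c2g was bright in every diabetic pool and dim in most non-diabetic pools. In diabetic myocardium its deposited intensity was 184 after sham and 1105, 509, 161, 352 and 89.3 on days 1, 7, 14, 28 and 56. In non-diabetic myocardium it was 11.9 after sham and 119.6, 43.6, 6.05, 15.4 and 10.8 on the same days. Each diabetic pool thus lay above its non-diabetic partner, but the groups overlapped across days, since the diabetic day 56 pool was below the non-diabetic day 1 pool. Intensities are on a linear scale without a unit in molecules, and in pooled whole tissue, fewer cells of a type and less RNA per cell cannot be told apart.

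**Figure D1:**
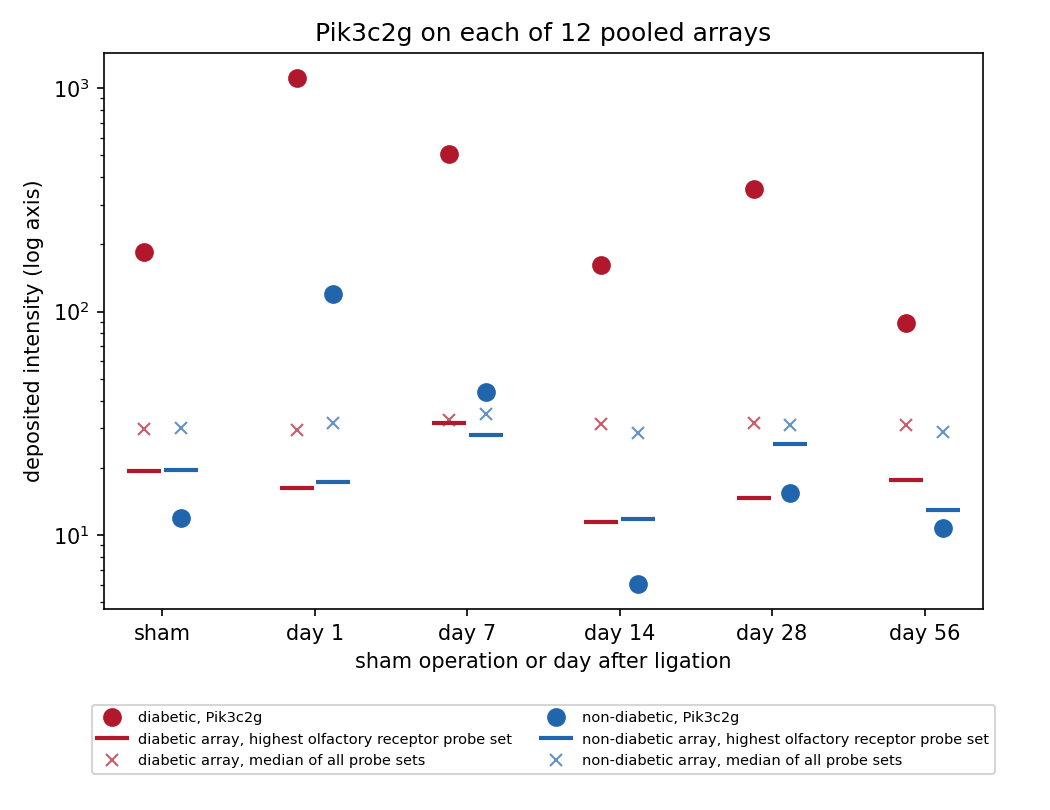
Deposited Pik3c2g intensity (circles, log axis) on each of the 12 pooled arrays by time point, diabetic left of non-diabetic, with the highest of 6 olfactory receptor probe sets (dashes) and the median of all probe sets (crosses) of the same array. All 6 diabetic circles lie above both marks, while the non-diabetic circles do so only on days 1 and 7.

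The place of the gene within each array was also higher in each diabetic pool than in its partner, with overlap across days. Pik3c2g stood at the 73.8th to 97.5th percentile of all probe sets in diabetic pools and at the 13.8th to 76.0th percentile in non-diabetic pools. Olfactory receptor genes, which are specific mainly to the nose, served as a rough measure of background, with 6 probe sets whose highest value on an array was between 11.5 and 31.7. Pik3c2g exceeded that highest value in 6 diabetic pools, by ratios to the olfactory median of 11.0 to 78.4. In non-diabetic pools it exceeded the highest value only on day 1 (119.6 against 17.3) and day 7 (43.6 against 28.0). In the non-diabetic sham, day 14, day 28 and day 56 pools it stood at 1.21 to 1.55 times the olfactory median, which is not above background by this measure.

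Since the dim side lay at background in 4 of 6 pairs, the size of the difference depended on the amount added before the logarithm. The plain intensity ratio, diabetic over non-diabetic, was 15.5 after sham and 9.24, 11.7, 26.6, 22.9 and 8.25 on days 1, 7, 14, 28 and 56. With an offset of 16 added to each intensity, the diabetic minus non-diabetic differences in log2 were 2.84, 3.05, 3.14, 3.00, 3.55 and 1.97 in the same order, with a mean of 2.93 ± 0.52 (SD, n = 6 pairs). The mean was 3.74 ± 0.65 with an offset of 1, 3.51 ± 0.57 with 4 and 1.98 ± 0.61 with 64. The difference was smallest on day 56 at each of these 4 offsets, in the pair whose labelled ages differ, and the time point with the largest difference moved from day 14 with an offset of 1 to day 28 with 4 or 16 and to day 1 with 64.

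**Figure D2:**
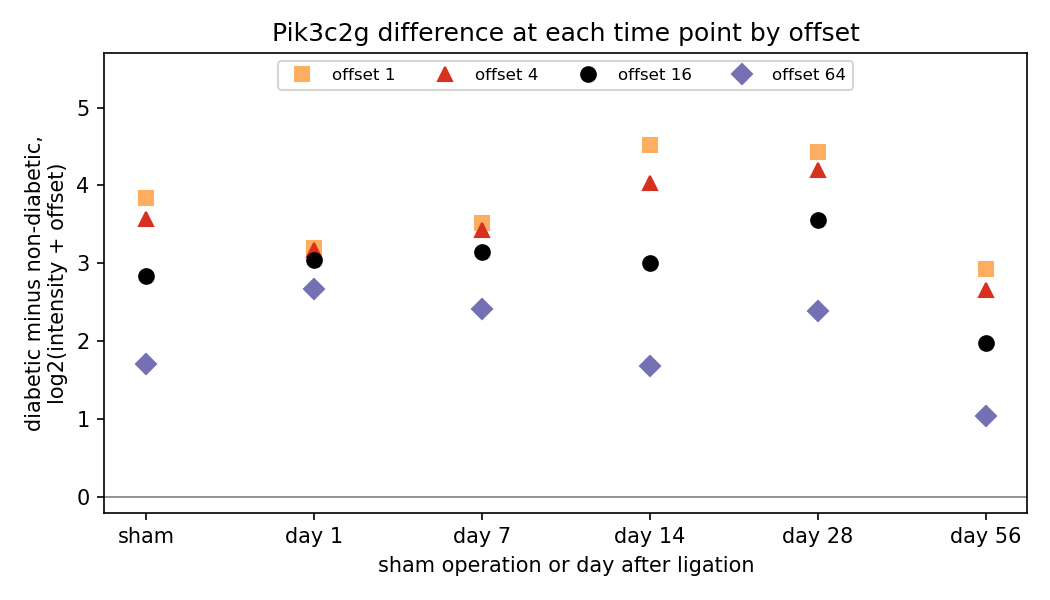
Diabetic minus non-diabetic difference of Pik3c2g in log2(intensity + offset) at each time point, for offsets of 1, 4, 16 and 64. The gene was chosen as higher in every pair and an offset cannot change the sign, so all 24 points are above 0. Day 56 is lowest at each offset, and day 1 moves least with the offset because both of its pools were bright.

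Measured against background instead of against its own dim value, the diabetic intensity was 9.36, 13.6, 13.8 and 6.88 times the highest olfactory receptor value of the non-diabetic array after sham and on days 14, 28 and 56. On days 1 and 7, when the non-diabetic pools were also above background, the plain ratios of 9.24 and 11.7 are the only ones measured on both sides.

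Across the 18625 probe sets that passed a filter on dim signal, 0.376% were called for diabetes by limma at an adjusted p under 0.05, with 28 higher (0.15%) and 42 lower (0.226%), and 10.6% had an unadjusted p under 0.05. Pik3c2g was chosen from this contrast, and no p-value is given for it. Of these probe sets 0.0322%, or 6, were higher in the diabetic pool by at least 1 in log2 at all 6 time points, and Pik3c2g had the largest smallest difference among them, at 1.97, followed by Acot1, a thioesterase of acyl-CoA, at 1.89. Every diabetic array was above every non-diabetic array in 0.123% of probe sets, and Pik3c2g was not one of them because of its day 56 and day 1 pools. At single time points 2 to 10 probe sets had a larger difference than Pik3c2g from sham to day 28, and 53 had one on day 56. The median difference of all these probe sets was between -0.094 and 0.18 at the 6 time points.

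Pik3c2g also moved with time after ligation. In diabetic pools, all above background, its intensity was 6.01 times the sham value on day 1, 2.77 times on day 7, 0.875 times on day 14, 1.91 times on day 28 and 0.485 times on day 56. The diabetic pools thus ran in the order day 1, day 7, day 28, sham, day 14 and day 56 from the highest down. In non-diabetic pools day 1 was the highest and day 7 the next, and these were the only ones above background. Their sham level was at background, so the ratios of 10.1 on day 1 and 3.66 on day 7 to it are not measured folds, and the log2 change on day 1 was 3.23 with an offset of 1, 2.28 with 16 and 1.27 with 64. The non-diabetic sham, day 14, day 28 and day 56 pools, all at background, have no order among themselves. The log2 levels of the 2 conditions correlated over the 6 time points with a Pearson r of 0.91, given as a description of 12 arrays that share their days, with 4 of the 6 non-diabetic values at background.

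In the fit of all 12 arrays, with time point and diabetes as terms, Pik3c2g rose on day 1 by 2.38 ± 0.32 in log2 against sham (SE, 2 arrays against 2), with an adjusted p of 0.0019 in limma. Of all probe sets 7.47% were called on that day and 4.2% were called higher, and 0.424% had a larger change. On day 7 it was higher by 1.24 ± 0.32, with a limma adjusted p of 0.041, where 4.67% of probe sets were called higher and 2.97% lower. On day 7 the median change of all probe sets was 0.15, and after quantile normalization, which set it at -0.030, Pik3c2g changed by 1.07. Days 14, 28 and 56 had changes of -0.26, 0.52 and -0.49 and did not pass, with limma adjusted p-values of 0.768, 0.999 and 0.449. On these days limma called 0 probe sets, while 11.7%, 3.62% and 16.4% had an unadjusted p under 0.05. These 5 contrasts share the 2 sham arrays. The call on day 7 was lost with an offset of 64, with a change of 0.86 and a limma adjusted p of 0.125, and in 5 other alternatives, at limma adjusted p-values of 0.053 to 0.072.

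From day 1 to day 56 Pik3c2g fell by 0.48 ± 0.051 for each doubling of the day (SE, 10 ligated arrays), with a limma adjusted p of 1.6e-04. This stands against a background of 28.5% of probe sets called for this slope, with 3430 lower (18.4%) and 1879 higher, or 2447 lower and 2556 higher after quantile normalization. Called day 1 changes split into 783 higher and 609 lower, or 571 and 685 after that normalization, and those on day 7 into 870 and 554, or 424 and 631. Without the 4 arrays of days 1 and 7 the slope was -0.12 and did not pass, with a limma adjusted p of 0.70. The mean of the 5 days minus sham was 0.68 ± 0.25 and did not pass, with a limma adjusted p of 0.351, where 0.107% of probe sets were called.

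The 4 arrays of days 1 and 7 stood apart in 1 measure of RNA quality, that of beta-actin, but not in that of GAPDH. For beta-actin, the probe set near the 3′ end exceeded the one near the 5′ end in log2 by 0.97 to 0.99 on them and 0.37 to 0.59 on the 8 other arrays. The same excess for GAPDH was 0.32 to 0.36 on them and 0.11 to 0.48 on the others. The part of RNA quality in the change of Pik3c2g between these days and sham was not tested. The mean diabetic minus non-diabetic difference of Pik3c2g was 3.09 on the 4 arrays of days 1 and 7 and 2.84 on the 8 others. The part of RNA quality in this difference was not tested.

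No change of the diabetic difference with ligation or with time was detected. Ligated minus sham, the diabetic difference was larger by 0.10 ± 0.54 in log2 (SE, 12 arrays), with a limma adjusted p of 1.00, and it changed by -0.097 ± 0.11 for each doubling of the day (SE, 10 arrays), with a limma adjusted p of 1.00. In these fits limma called 0 of 18625 probe sets, and 0.671% and 4.5% had an unadjusted p under 0.05. This does not show that the difference was constant. Both interactions changed sign with an offset of 1, at -0.12 and 0.067.

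None of the other phosphoinositide 3-kinase genes, which unlike Pik3c2g were tested, passed for diabetes. Of 18 genes listed for the catalytic and regulatory subunits of class I, for class II and for class III with its partners, 14 besides Pik3c2g had a probe set above the filter, and limma called 0 of 14 for diabetes, against 0.376% of all probe sets. Their smallest adjusted p in limma was 0.211, and 2 of 14 had an unadjusted p under 0.05, beside 10.6% of all probe sets. Their differences lay between -0.41 and 0.47 with a median of 0.0079, beside a median of -0.010 over all 10623 genes past the filter.

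The nearest relatives are the other class II enzymes. Pik3c2a, the alpha form, had intensities of 80.2, 142.4, 160.6, 101.8, 198.4 and 152.3 in diabetic pools from sham to day 56, against 61.1, 157.8, 112.6, 115.1, 66.0 and 134.0 in non-diabetic pools. Its difference was 0.34 ± 0.20 (SE, 6 pairs) with 4 of 6 pairs higher, and a limma adjusted p of 0.571. Pik3c2b, the beta form, had 23.7, 38.5, 44.4, 57.0, 123.1 and 115.6 in diabetic pools, against 27.0, 46.8, 59.5, 85.4, 43.0 and 192.1 in non-diabetic pools. Its difference was -0.090 ± 0.22 with 1 of 6 pairs higher, and a limma adjusted p of 0.917. Both relatives were above the highest olfactory receptor value in every pool, and their diabetic and non-diabetic pools overlapped. The second probe set of Pik3c2a had a difference of 0.39, and that of Pik3c2b was below the filter.

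In class I, the catalytic gene Pik3ca, whose product serves the insulin receptor, had a difference of 0.33 and Pik3cd, the form typical of leukocytes, of -0.17. The other probe sets of Pik3ca past the filter had differences of 0.13 to 0.50, and none was called. The regulatory genes Pik3r1, Pik3r2, Pik3r3 and Pik3r6 had differences of 0.11, -0.096, 0.048 and -0.41. Pik3r1 varied most, between -1.77 on day 28 and 1.87 after sham. Its diabetic day 28 value of 2.81 and its non-diabetic sham value of 6.42 were under the olfactory receptor median of their arrays. Both differences thus depend on the offset. Pik3r6, a regulatory subunit of the gamma enzyme in leukocytes, was lower in 6 of 6 pairs. In class III, the catalytic gene Pik3c3 had -0.068 and its regulatory gene Pik3r4 had 0.021. Its partners in autophagy Becn1, Atg14 and Uvrag had -0.045, 0.039 and -0.0053, and Rubcn, an inhibitor of that complex, had 0.47 with 6 of 6 pairs higher.

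**Figure D3:**
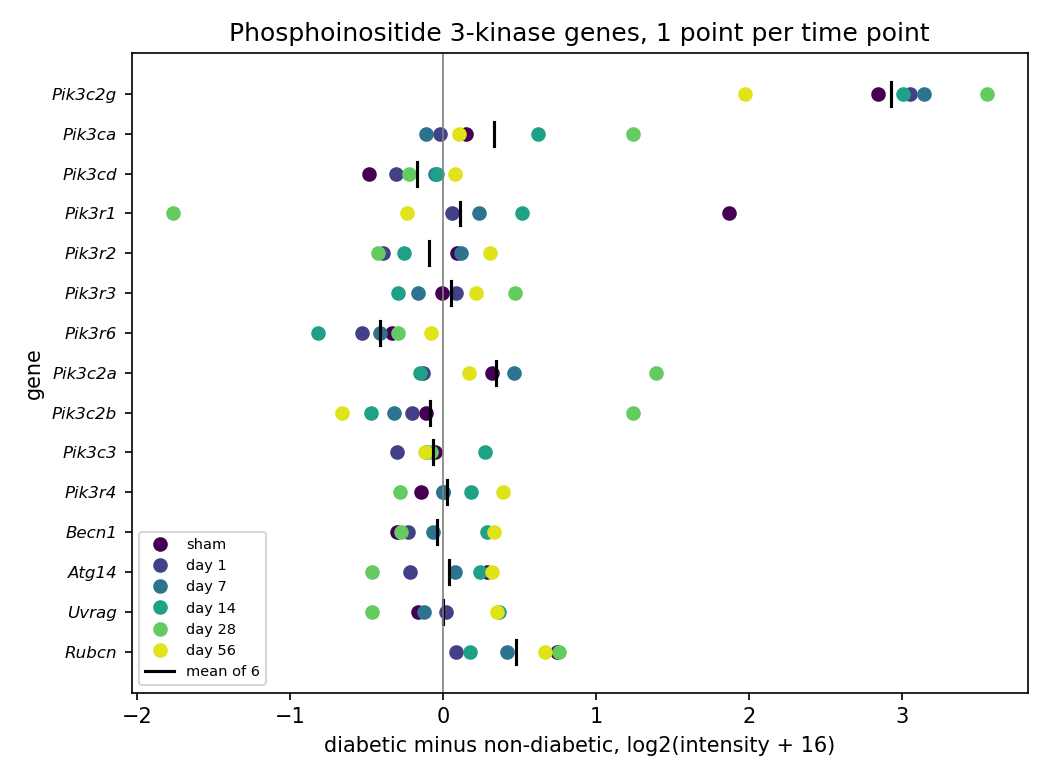
Diabetic minus non-diabetic difference in log2(intensity + 16) at each of 6 time points (coloured points) and their mean (black bar) for 15 phosphoinositide 3-kinase and partner genes, 1 probe set each. The 6 points of Pik3c2g lie between 1.97 and 3.55, and the largest point of any other gene is that of Pik3r1 after sham at 1.87. The non-diabetic sham value of Pik3r1 was 6.42, under the olfactory receptor median of 9.84 on its array. The gap between these genes thus depends on the offset.

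On day 1 limma called 1 of the same 14 genes, Pik3r3, a regulatory subunit of class I, which fell by 0.91 with an adjusted p of 0.026, and 0 were higher, beside 4.2% called higher and 3.27% called lower among all probe sets. For the slope on log2 of the day 3 of 14 were called higher and 1 lower, against 10.1% and 18.4% of all probe sets, and on day 7 limma called 0 of 14, against 7.65%. The 1 that was lower in slope was Pik3r1, which fell by 0.39 for each doubling of the day with a limma adjusted p of 0.012. Its diabetic day 28 value and both day 56 values were under the highest olfactory receptor value of their arrays, so the size of this fall depends on the offset.

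Enzymes that make or remove the neighbouring lipids gave no calls for diabetes, which is near the share of 0.376% called among all probe sets. For the 4- and 5-kinases of inositol lipids limma called 0 of 10 for diabetes, with a median of -0.093, and the smallest p-values belonged to Pi4kb, a Golgi kinase, at 0.29 and Pip5k1c at -0.27. For phosphoinositide phosphatases it called 0 of 26 with a median of -0.041, with Mtmr4 at -0.29 and Inpp5j at -0.28. For Rab5, its regulators and early endosome proteins it called 0 of 16 with a median of 0.011, with Rin3, an exchange factor for Rab5, at -0.44 and Appl1, a Rab5 effector that binds Akt, at 0.37. At an unadjusted p under 0.05 these were 0 of 10, 0 of 26 and 2 of 16, beside 10.6% of all probe sets. On day 1 limma called 2 of these 16 higher, Appl1 at 1.22 with an adjusted p of 0.022 and Rab5c, an isoform of Rab5, at 1.03 with an adjusted p of 0.034, against 4.2% of all probe sets. Among the phosphatases 1 of 26 was called higher on day 1, Synj1, a phosphatase of clathrin-coated vesicles, at 1.09 with a limma adjusted p of 0.040, against the same 4.2%.

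Among genes from the insulin receptor to Akt and its targets, limma called 1 of 22 for diabetes, Slc2a4, the insulin-responsive glucose transporter, which fell by 1.25 with an adjusted p of 0.0465, where 0.226% of all probe sets were called lower. Irs2, an adaptor of the insulin receptor, had a difference of 1.03 with 6 of 6 pairs higher and did not pass, with a limma adjusted p of 0.136. Of genes known to be induced by FoxO factors when insulin is low, 2 of 18 rose, Txnip, an inhibitor of thioredoxin, at 1.21 and Pdk4, the inhibitory kinase of pyruvate dehydrogenase, at 2.46, with limma adjusted p-values of 0.0089 and 0.017, and the list had a median of 0.35. Of targets of the fatty acid sensor PPAR-alpha, 5 of 25 rose, Acot1, Acot2, Decr1, Angptl4 and again Pdk4, and the median was 0.43. The share of all probe sets called higher was 0.15%. Of these genes, Angptl4, a secreted inhibitor of lipoprotein lipase, also rose on day 1, by 3.15 with a limma adjusted p of 0.046, while Acot1, Acot2, Decr1, Pdk4 and Txnip had day 1 changes of 0.77, 0.69, -0.15, 0.90 and -0.11 that did not pass.

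The genes whose log2 level followed Pik3c2g most closely over the 12 arrays, of 10622 compared, are given as a description, since the arrays share their condition and day. Nudt7, a peroxisomal hydrolase of coenzyme A, had the highest Pearson r at 0.92, followed by Vopp1 at 0.91 and Azin1, an inhibitor of antizyme in polyamine metabolism, at 0.90. Rab30, a GTPase of the Golgi, had 0.90, Pdlim3, a Z-disc protein of muscle, 0.89, and Acot1 0.89. Eif4ebp1, a repressor of translation that insulin inactivates, had 0.88, Baiap2l1 0.88, Cited2, a transcriptional cofactor, 0.88 and Aqp7, a glycerol channel, 0.87. Nudt7 had intensities of 603, 747, 557, 463, 631 and 530.1 in diabetic pools from sham to day 56, against 189, 514, 274, 140.0, 213 and 121 in non-diabetic pools. It shared with Pik3c2g the height of every diabetic pool over its partner and the peak on day 1 in both conditions, with a smaller range.

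After the mean of each condition was taken out, which leaves the changes with time, the closest genes over the 12 arrays were others. Cxcl1, a chemokine that attracts neutrophils, had an r of 0.94, Zfyve9, an endosomal adaptor that binds the lipid made by class III and class II enzymes, 0.94, and Yipf7, Tsc22d2 and Amot had 0.94, 0.93 and 0.93. Cxcl1 had intensities of 18.5, 269, 33.7, 8.57, 41.2 and 3.26 in diabetic pools, against 8.96, 110.2, 31.5, 0.0072, 26.1 and 1.31 in non-diabetic pools. After sham and on days 14 and 56 both of its values were under the highest olfactory receptor value of their arrays, so at background. Of all genes 0.207%, or 22, had an r of at least 0.9 with Pik3c2g by this measure, and 0.0188%, or 2, had one over the 12 arrays without it.

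**Figure D4:**
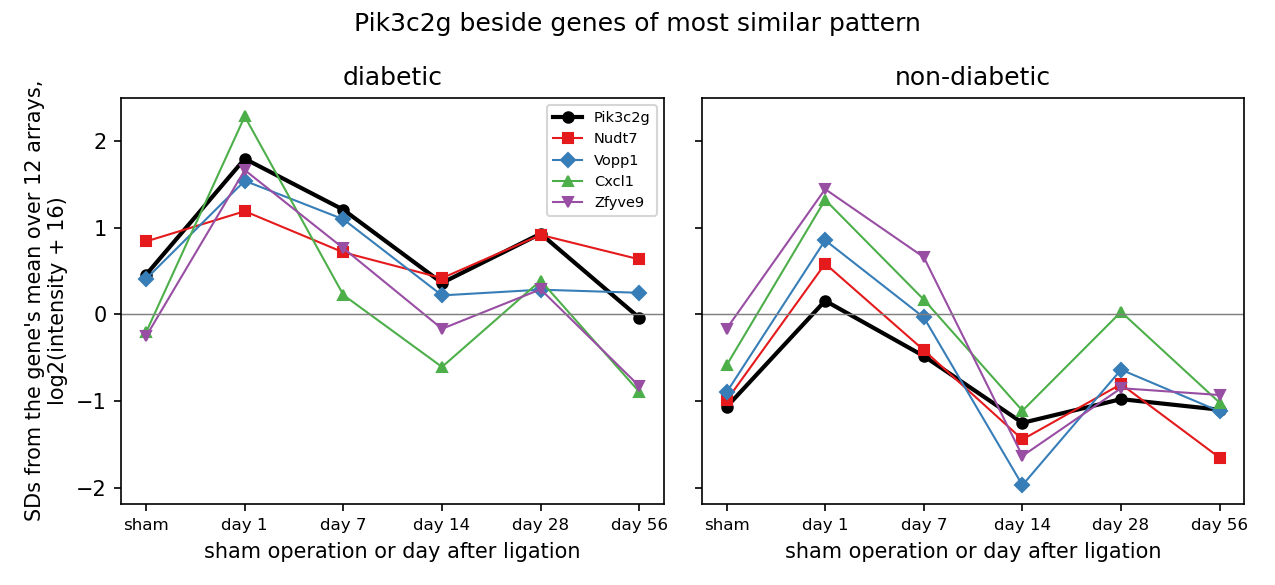
Log2(intensity + 16) of Pik3c2g, of Nudt7 and Vopp1 (closest over the 12 arrays) and of Cxcl1 and Zfyve9 (closest after the mean of each condition was taken out), in SDs from each gene's mean over the 12 arrays, diabetic pools left and non-diabetic pools right. All 5 genes peak on day 1 in both conditions, and Pik3c2g, Nudt7 and Vopp1 lie higher in the diabetic pool at 6 of 6 time points and Zfyve9 at 5 of 6. Cxcl1 is drawn higher at 6 of 6, but after sham and on days 14 and 56 both of its pools were at background and have no order.

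Of the 3 nearest measured genes on each side of Pik3c2g, in the GRCr8 gene order, none that was tested had a called difference. Among all probe sets 0.376% were called. These neighbours lay 77.1 to 1742 kb away, with 2 to 8 genes without a probe set in between. Lmo3 and Capza3, the nearest on each side, were below the filter, so the nearest tested gene was Plekha5 at 482 kb. The representative probe sets of Mgst1, Dera and Aebp2 had differences of 0.37, -0.13 and 0.26 with limma adjusted p-values of 0.436, 0.851 and 0.582. Plekha5, a membrane-binding adaptor and the second measured gene on the far side, had intensities of 151, 66.6, 88.0, 140.3, 188 and 165 in diabetic pools, against 57.0, 61.8, 59.0, 47.3, 73.0 and 51.7 in non-diabetic pools. Its diabetic pool was higher in 6 of 6 pairs, with a mean difference of 0.94 that did not pass, at a limma adjusted p of 0.077, and its other probe set was below the filter with a mean difference of 0.026.

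Markers of other cell types were read because Pik3c2g is known from liver and glands. Of 100 tested members of 17 marker lists limma called 0 for diabetes, against 0.376% of all probe sets, and 14 had an unadjusted p under 0.05, against 10.6%. Of 17 hepatocyte markers, 12 stayed on all 12 arrays under 31.7, the highest olfactory receptor value on any array, among them Apoa1, Fga, Fgb and Tat. Albumin, Alb, reached 45.4 at most, and the highest was Ttr at 154 to 415. Cyp2e1, a cytochrome P450 abundant in liver, had intensities of 283, 99.2, 355, 191, 314 and 98.8 in diabetic pools from sham to day 56, against 73.2, 243, 149, 29.0, 35.1 and 33.7 in non-diabetic pools. It was higher in 5 of 6 pairs, all but day 1, by 1.31 ± 0.39 in log2 (SE), which did not pass, with a limma adjusted p of 0.238 and an unadjusted p of 0.0061. The part of liver-type expression in the difference of Pik3c2g was not tested. The summed level of the 17 was 421 to 855 in diabetic and 365 to 765 in non-diabetic pools, so the groups overlapped across days. Within pairs this sum was higher in the diabetic pool at every time point except day 1, when it was lower. The sum includes Cyp2e1, which was higher at the same time points. Of 12 acinar markers of the pancreas 7, and of 9 markers of mammary, prostate and exocrine epithelium 7, stayed under the same value, with summed levels of 177 to 285 and 114 to 162 over all arrays. Cardiomyocyte markers were abundant in every pool, with a summed level of 50185 to 65433.

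On day 1, when Pik3c2g peaked, neutrophil markers also stood out. Limma called 3 of 5 tested members higher, Lcn2 at 3.64, S100a8 at 2.48 and Csf3r at 1.61, against 4.2% of all probe sets. In all, 4 of the 5 were above 0, and the lowest changed by -0.79 and was not called. All 5 had an unadjusted p under 0.05 in limma. The summed level of the 7 measured members was 2515 in the diabetic and 2486 in the non-diabetic day 1 pool, and 197 to 1320 on the other arrays, with the highest of these in the non-diabetic day 28 pool. On day 7 this sum was 262 in the diabetic and 306 in the non-diabetic pool, and after sham it was 383 and 480. Of lymphocyte markers 3 of 7 were called lower on day 1, Cd2, Cd4 and Gzmb, against 3.27% of all probe sets. The changes of 3 of the 7 were above 0 on that day, and none of these was called. On day 7 limma called 4 of 9 fibroblast markers higher, the collagens Col1a1, Col1a2 and Col3a1 and the matrix protein Postn, against 4.67% of all probe sets, and their summed level was 23272 in the diabetic and 23773 in the non-diabetic pool, against 6497 and 8574 after sham. For the slope on log2 of the day, in which Pik3c2g fell, limma called 5 of 10 macrophage markers and 4 of 5 neutrophil markers lower, against 18.4% of all probe sets. It called 1 of the 5 neutrophil markers higher, at 0.16, against 10.1% of all probe sets. The part of these cell types in the time course of Pik3c2g was not tested.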

How the data were processed

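RNA of 12 pools of 3 rats each was hybridised to Affymetrix rat arrays, per the labels. The authors deposited 1 linear intensity per probe set, made with Affymetrix Expression Console and PLIER per the submitters' processing notes; its background and scaling settings: not given in the sources used here. Groups came from the labels. Of 31099 probe sets 57 controls were removed, and 20826 had 1 gene symbol in the platform annotation of the reference tables. Values were log2(intensity + 16), so fold changes of dim genes are understated, and probe sets above the 40th percentile of the mean (18625) were tested. Among probe sets of a gene, the one of highest mean stood for it. Counts within lists are thus of genes, while the shares beside them are of all probe sets. Over the 10623 genes past the filter, 0.471% were called for diabetes, 6% on day 1 and 5.25% on day 7. For the slope 6.87% of these genes were called higher and 20.1% lower. Differences were fitted with limma 3.58.1 in R 4.3.3, with time point and diabetes as terms, trended moderated variances and Benjamini-Hochberg adjustment over 18625 probe sets at 0.05, which leaves 5 residual degrees of freedom; p-values measure how differences vary over time points, not between rats. The pipeline was tested on simulated data. Named genes are all probe sets of Pik3c2g, all listed class I to III genes, in other lists those past the diabetes test or the 2 with the smallest p, the 10 and 5 most similar genes and 3 neighbours per side; genes named for day 1 or slope calls and the markers were chosen after their values were seen. The gene and lists were chosen with earlier results of these data known.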

Additional observations from a re-analysis of the deposited data

Results flagged for a closer look

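Of 45 sets of 6 values examined for Pik3c2g and the 14 other phosphoinositide 3-kinase genes, 1 held a value far from its neighbours by Dixon's criterion, where chance gives about 1 in 20. The diabetic minus non-diabetic difference of Pik3c2b on day 28 was 1.24, while the 5 others lay between -0.66 and -0.12, which gives a gap of 0.713 of the whole range against a critical value of 0.625. No set of Pik3c2g values stood out in this way.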

How the results depend on the processing

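The diabetic minus non-diabetic value of Pik3c2g was above 0 in all 17 alternatives, which the choice of the gene had largely fixed in advance. Of these, only the offset moved it by more than its SD over pairs, at 3.74 with 1, 3.51 with 4 and 1.98 with 64. With 1 time point pair left out it was 2.80 to 3.12. The rise on day 1 passed in all 12 alternatives, at 1.76 to 2.90. The day 7 change did not pass with an offset of 64 (0.86), quantile normalization (1.07), equal array medians (1.14), or a filter at the 60th percentile or without the day 1 or day 14 pair (1.24 each). The slope passed in 14 of 15 alternatives, at -0.53 to -0.44 with 1 pair left out, but not on sham and days 14, 28 and 56 alone, at -0.12, where the mean of the days minus sham was -0.075; with 1 pair left out that mean was 0.25 to 0.97. The interaction with ligation was -0.12 and -0.067 with offsets of 1 and 4 and -0.051 to 0.34 with 1 pair left out, and that with log2 day was 0.067 and 0.017 with offsets of 1 and 4 and -0.30 to 0.073; neither passed in any alternative. Probe sets called for diabetes numbered 6 to 92 with 1 pair left out, with 20 without the sham, 42 without the day 7, 21 without the day 14 and 6 without the day 56 pair, 35 on sham and days 14 to 56, 2 on days 1 and 7 and 14 without time point in the model, against 70. The subsets also held fewer arrays, and the cause of these changes was not tested. Contrasts with sham have no value without the sham pair.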

Other observations

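Genes that ran opposite to Pik3c2g were looked up after their values were seen and are given without a test. Igfbp5, a binding protein of insulin-like growth factors, had the lowest Pearson r with Pik3c2g over the 12 arrays, at -0.94. Its intensities were 117, 60.9, 130, 285, 146 and 269 in diabetic pools from sham to day 56, against 470.1, 150.2, 347, 416, 505 and 524 in non-diabetic pools. Each diabetic pool was below its non-diabetic partner, and day 1 was the lowest time point in both conditions, where Pik3c2g was highest. Tsc22d4 and Gpsm1 followed with r of -0.92 and -0.92.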
